A study of Mus musculus with 14 samples.

Results

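The glycerol phosphate pathway of triglyceride synthesis was followed in mouse liver through 10 genes: Gpam, Agpat1, Agpat2, Agpat3, Lpin1, Lpin2, Dgat1, Dgat2, Mogat1 and Pnpla3. Every probe set that the platform's table of probe sets and genes lists with exactly 1 of these symbols was taken, whatever its values, which gave 21 of the 45101 probe sets on the array and 10 of its 18193 genes with a symbol of their own. The arrays came from 14 male CBA/J mice, an inbred strain, each kept alone on 84 kcal per week of a purified diet of the AIN93M type. From 2 months of age, 7 mice ate the control diet and 7 ate a diet with a powder extract of krill, a marine crustacean. Total protein and total lipid were equal between the diets, while amino acid and fatty acid make-up differed. Feeding lasted 3 months, livers were collected at 5 months of age, and each array held the RNA of a single mouse. No genetic change, transgene or disease model was involved, and the labels give a single dose and a single time. The number of arrays limits the precision.

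In this pathway glycerol 3-phosphate receives a fatty acid from a glycerol-phosphate acyltransferase, a second one from a lysophosphatidate acyltransferase, loses its phosphate to a lipin, and the resulting diacylglycerol receives the last fatty acid from a diacylglycerol acyltransferase. A side route makes diacylglycerol from monoacylglycerol. In liver the product is stored in droplets or loaded into very low density lipoprotein, and phosphatidate and diacylglycerol also feed phospholipid synthesis. Insulin and sugar raise much of the pathway's expression through the transcription factors SREBP-1c and ChREBP, while long-chain polyunsaturated fatty acids are known to lower the activity of both.

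Start-site sequences are shown for Agpat3, Gpam and Lpin2, the genes whose probe sets differed most from each other in their diet difference, with the first of the 3 windows in the table for Lpin2. RefSeq windows of assembly GRCm38.p6 were found for 8 of the 10 genes, 12 windows in all, with none in the table for Dgat1 and Dgat2. Each line gives the 250 bases that precede an annotated start, read 5′ to 3′ on the gene's own strand. Capitals mark matches on either strand to an E-box (CACGTG), the core of a sterol regulatory element (TCACNCCAC), a CCAAT box (CCAAT) or a GC box (GGGCGG).
Agpat3, chr10:78351701-78351950, minus strand: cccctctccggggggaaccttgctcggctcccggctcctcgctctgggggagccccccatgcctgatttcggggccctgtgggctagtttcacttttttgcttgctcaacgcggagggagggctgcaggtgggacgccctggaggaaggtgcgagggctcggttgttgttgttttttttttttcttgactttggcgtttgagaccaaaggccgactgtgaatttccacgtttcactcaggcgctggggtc
Gpam, chr19:55127239-55127488, minus strand: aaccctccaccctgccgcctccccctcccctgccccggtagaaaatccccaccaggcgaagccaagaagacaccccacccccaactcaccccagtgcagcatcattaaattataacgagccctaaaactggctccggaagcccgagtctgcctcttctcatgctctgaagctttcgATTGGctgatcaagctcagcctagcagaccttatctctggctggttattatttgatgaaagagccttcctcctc
Gpam, chr19:55099478-55099727, minus strand: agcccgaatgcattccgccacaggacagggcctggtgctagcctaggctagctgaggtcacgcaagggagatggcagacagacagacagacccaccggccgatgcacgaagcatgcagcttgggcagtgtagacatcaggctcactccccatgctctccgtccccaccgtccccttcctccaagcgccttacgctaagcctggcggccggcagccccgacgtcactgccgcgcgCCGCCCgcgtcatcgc
Lpin2, chr17:71183282-71183531, plus strand: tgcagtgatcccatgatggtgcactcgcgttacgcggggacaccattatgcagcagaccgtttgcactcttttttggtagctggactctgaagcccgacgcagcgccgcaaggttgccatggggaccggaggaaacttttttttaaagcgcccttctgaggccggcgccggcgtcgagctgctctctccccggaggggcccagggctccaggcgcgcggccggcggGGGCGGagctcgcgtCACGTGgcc

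The Agpat3 window held none of the 4 motifs. The Gpam windows differed, with a CCAAT box beginning 74 bases before the start in the outer window and a GC box 16 bases before the start in the inner window. The Lpin2 window held a GC box 24 bases and an E-box 9 bases before the start. Among all 12 windows of these genes 1 held the E-box, 0 the sterol element core, 4 a CCAAT box and 7 a GC box. Among 32851 windows of the same length over all genes the shares were 6.02%, 1.05%, 33.8% and 32.7%. A match of letters is a description of the window and was not measured as binding.

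The quality of the arrays differed between the diets and bears on each value that follows. Signal near the 3′ end of a control transcript over that near its 5′ end, a ratio that rises as RNA gets shorter, was higher on all 7 krill arrays than on all 7 control arrays for actin and for pyruvate carboxylase. For actin the control arrays averaged 2.09 ± 0.242 (SD, n = 7) and the krill arrays 2.98 ± 0.493 (SD, n = 7). The adjusted p over 7 quality measures was 0.00204, from a two-sided p of 0.000583 in an exact permutation of the diets, which can give no smaller value in 3432 assignments. For GAPDH the diets overlapped, at 0.751 to 0.900 on control and 0.750 to 1.69 on krill arrays (exact permutation adjusted p = 0.198). Hybridisation spike-ins, added in equal amounts, read above every control array on krill replicates 2, 4, 5 and 7 and within or below the highest control on krill replicates 1, 3 and 6. The 78 probe sets of olfactory and vomeronasal receptors, which liver is not known to express, had a median signal of 20.1 to 38.0 on the control arrays, 32.4 to 71.1 on krill replicates 1, 3 and 6 and 131 to 183 on krill replicates 2, 4, 5 and 7. For this reason the differences of the tested probe sets of these genes, and the counts of the related lists, were also computed without those 4 krill arrays, which leaves 7 control and 3 krill arrays. The 3 krill arrays kept were still above every control array in the 3′/5′ ratios of actin and pyruvate carboxylase. Leaving out the 4 arrays therefore does not remove that difference between the diets.

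Signal is a linear intensity scaled to a common trimmed mean on each array, and log2 changes are krill minus control on the log2(signal + 16) scale, which understates changes of dim probe sets. A probe set was tested where its mean log2 signal was in the upper 50% of all probe sets. Of the 21 probe sets 19 passed this filter, and the remaining 2, Pnpla3 1420655_at and Dgat1 1445229_at, did not. Of the 19, 10 were lower on krill, 1 was higher and 8 did not pass the test (limma with Benjamini-Hochberg adjustment over 22518 probe sets, threshold 0.05). Over all tested probe sets 24.8% were lower and 19.8% higher, 44.6% together. The median log2 change was -0.86 over the 19 and -0.01 over all tested. The 19 came from 9 genes, some with several probe sets. With 1 probe set per gene, that of highest mean log2 signal, the medians were -0.10 for these genes and 0.04 for all genes. Without krill replicates 2, 4, 5 and 7 limma called 6 lower and 0 higher, against 19.7% and 9.95% of all tested. In that fit 10 of the 19, and 9131 of all 22518 tested, had an unadjusted p under 0.05. The medians over probe sets were -0.50 and -0.09 there. Lpin2 1446316_at passed the filter through its control arrays, since its krill mean of 6.77 on the log2 scale was under the limit of 6.87, so the count includes a probe set that had to differ. Scaling the arrays on the spike-ins left no member probe set higher and 15 lower. The split over all tested probe sets turned from 4467 higher and 5575 lower to 672 and 11167. Centring on the array median turned it to 1684 and 7616.

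**Figure D1:**
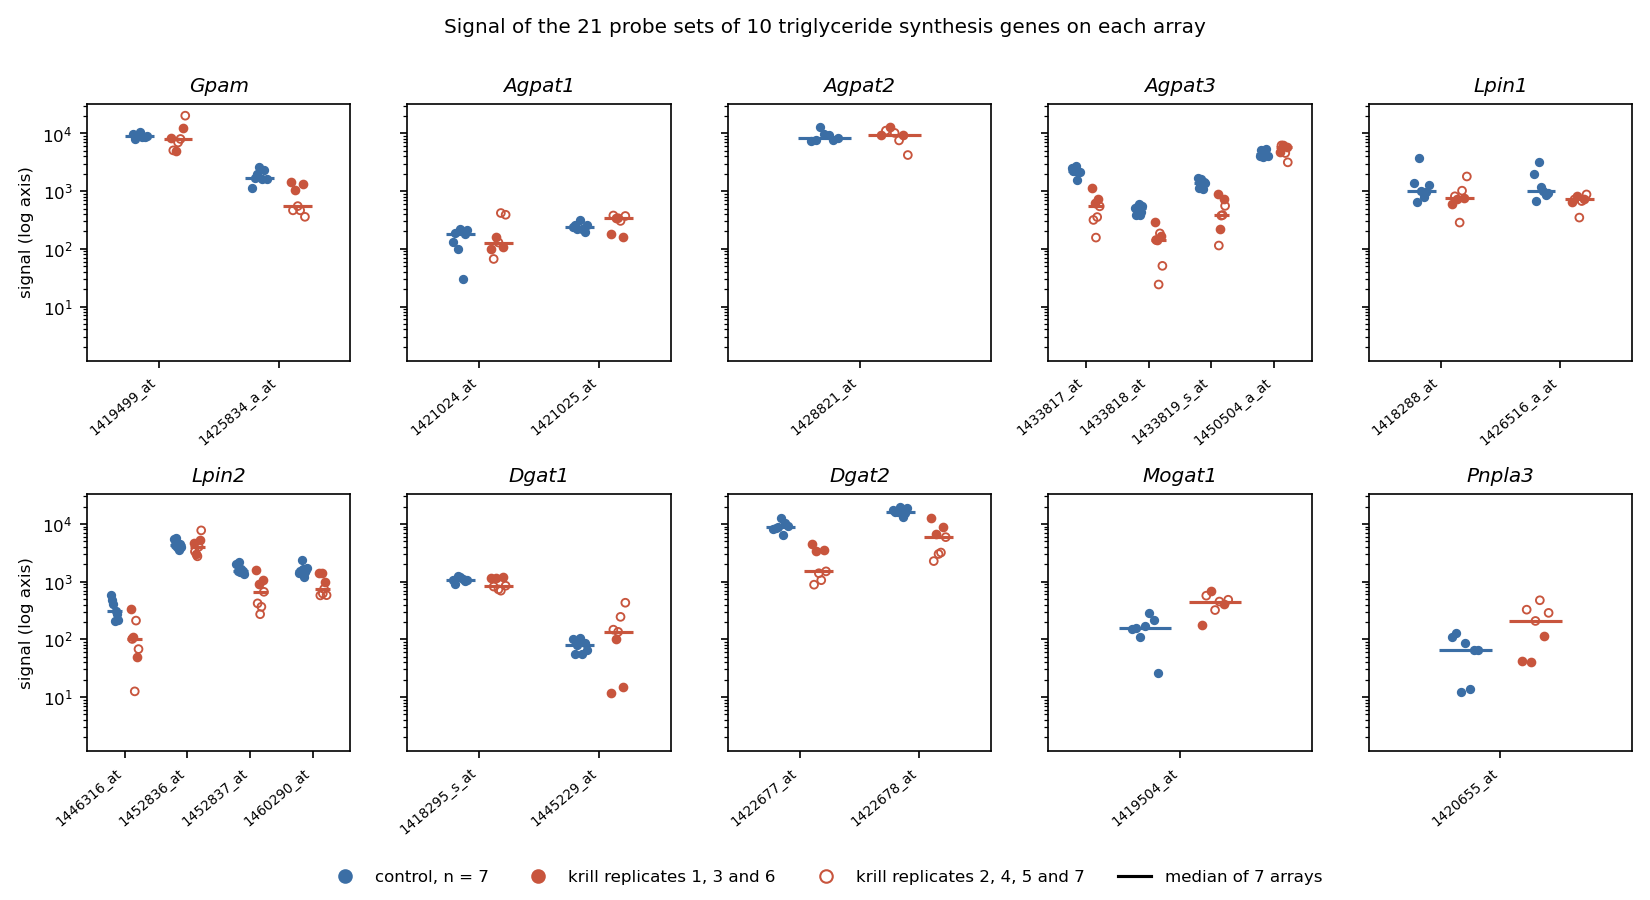
Signal of each of the 21 probe sets on each array, on a log axis, by gene. Filled blue points are the 7 control arrays, filled red points krill replicates 1, 3 and 6, open red points krill replicates 2, 4, 5 and 7, and lines the medians of 7 arrays. The krill points of both Dgat2 probe sets and of 3 of the 4 Agpat3 probe sets lie below all control points, and the open points are the lowest in Dgat2.

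Gpam encodes the glycerol-phosphate acyltransferase of the outer mitochondrial membrane, which commits fatty acids to glycerolipids. Its probe set 1419499_at read 8023 at the lowest, 8890 at the median and 10810.5 at the highest in control livers, and 4880, 8030 and 20350 in krill livers. The krill values straddled the control range, with 3 arrays below it and 2 above it. The log2 change was -0.12 (SE 0.25, 95% interval -0.65 to 0.40, limma adjusted p = 0.705) with all arrays. The second probe set, 1425834_a_at, read 1134, 1699 and 2581 in control and 359, 551 and 1447 in krill livers. Krill replicates 1 and 6, at 1447 and 1306, lay inside the control range and the other 5 krill arrays below it. It fell by 1.33 on the log2 scale (SE 0.30, limma adjusted p = 0.0017), a 2.51-fold lower level. Without krill replicates 2, 4, 5 and 7 the log2 change of -0.50 missed the threshold (limma adjusted p = 0.0927).

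The lysophosphatidate acyltransferases add the second fatty acid and make phosphatidate. Agpat1 and Agpat2 are enzymes of the endoplasmic reticulum, and loss of AGPAT2 causes lipodystrophy in humans. Agpat1 1421025_at read 199.8, 235 and 320 in control and 161, 340 and 379 in krill livers, and differed by 0.21 on the log2 scale (SE 0.22, limma adjusted p = 0.441). The dimmer Agpat1 1421024_at read 30.002 to 220 in control and 66.8 to 418 in krill livers, and differed by 0.23 (SE 0.42, limma adjusted p = 0.674). Groups overlapped in both, and both differences turned negative without krill replicates 2, 4, 5 and 7, at -0.15 each. Agpat2 1428821_at read 7382, 8248 and 12814 in control and 4230, 9517 and 12855 in krill livers. Its log2 change was -0.0036 (95% interval -0.45 to 0.44, limma adjusted p = 0.99), and 5 krill arrays lay inside the control range.

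Agpat3, a lysophosphatidate acyltransferase known to accept polyunsaturated acyl chains, had 4 tested probe sets that split. Probe set 1433817_at read 1566, 2203 and 2735 in control and 157, 546 and 1148 in krill livers. The diets did not overlap, every krill array being below the control range, with krill replicate 4 lowest and krill replicate 1 highest. It fell by 2.18 on the log2 scale (SE 0.31, limma adjusted p = 5.66e-05), a 4.52-fold lower level. Probe set 1433818_at read 386, 503 and 592 in control and 24.1, 144 and 288 in krill livers and fell by 1.89 (SE 0.35, limma adjusted p = 0.000415). On krill replicates 2, 4 and 7 it read at or below the receptor median of the same array, so its level there was not above that background and the size of its fall is not settled. Probe set 1433819_s_at read 1074, 1406 and 1721 in control and 114, 385 and 883 in krill livers and fell by 1.77 (SE 0.33, limma adjusted p = 0.000418), with krill replicate 2 at or below the receptor median. Neither overlapped between the diets, and 1433817_at read above the receptor median of its own array on all 14. On krill replicate 4, however, its 157 was close to that array's receptor median of 143, which limits the size of its fall too. In the fit that leaves out krill replicates 2, 4, 5 and 7 the 3 stood at -1.42, -1.26 and -1.36 and passed (limma adjusted p = 0.000713, 0.00139 and 0.00543).

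The fourth Agpat3 probe set, 1450504_a_at, read 3957, 4453 and 5400 in control and 3161, 5871 and 6275 in krill livers. Here 4 krill arrays lay above every control array and 1 below. Its log2 change was 0.19 (SE 0.17, limma adjusted p = 0.368), and it was -0.26 with median centring and -0.60 with spike-in scaling. The platform table traces the 3 lower probe sets to 1 source sequence and the fourth to another, and their positions along the transcript are not used here.

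Lipins remove the phosphate from phosphatidate to give diacylglycerol. Lpin1, which fasting and glucocorticoids are known to induce in liver and whose protein is also a nuclear coactivator, had 2 probe sets. Lpin1 1426516_a_at read 684, 1022 and 3174 in control and 348, 719 and 878 in krill livers. The control spread was wide, with control replicates 3 and 1 at 3174 and 1952, and the krill values overlapped the lower controls except for 3 arrays. It fell by 0.86 on the log2 scale (SE 0.29, limma adjusted p = 0.0225). The call was lost without control replicate 1 (log2 change -0.75, limma adjusted p = 0.0534) and without krill replicate 4 (-0.71, limma adjusted p = 0.0548). It was also lost without krill replicates 2, 4, 5 and 7 (-0.73, limma adjusted p = 0.14) and with quantile normalization (-0.67, limma adjusted p = 0.0853). Lpin1 1418288_at read 645, 989 and 3793 in control and 286, 758 and 1798 in krill livers, and its log2 change of -0.63 did not pass (SE 0.36, limma adjusted p = 0.166).

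Lpin2, a lipin that is abundant in liver, had 3 lower probe sets and 1 that did not pass. Lpin2 1452837_at read 1357, 1499 and 2184 in control and 272, 665 and 1558 in krill livers. Every krill array except replicate 1 lay below all controls, and it fell by 1.35 (SE 0.31, limma adjusted p = 0.00198). Lpin2 1460290_at read 1188, 1505 and 2345 in control and 576, 747 and 1422 in krill livers and fell by 0.89 (SE 0.23, limma adjusted p = 0.00493). Krill replicates 1 and 3, at 1422 and 1421, lay inside its control range. The dim Lpin2 1446316_at read 209, 303 and 590 in control and 12.5, 101 and 341 in krill livers and fell by 1.67 (SE 0.43, limma adjusted p = 0.00513). It passed the filter through its control arrays alone and read at or below the receptor median on krill replicates 2, 4 and 7, so its call is not counted as support for Lpin2. Lpin2 1452836_at read 3534, 4331 and 5772 in control and 2741, 4009 and 7718 in krill livers, and its log2 change was -0.10 (SE 0.21, limma adjusted p = 0.713). With krill replicates 2, 4, 5 and 7 left out, 1452837_at stood at -0.52 and 1460290_at at -0.32 and neither passed (limma adjusted p = 0.0574 and 0.231), while 1446316_at, chosen by the filter as described, stood at -1.28 (limma adjusted p = 0.0363).

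Diacylglycerol acyltransferases add the last fatty acid. Dgat2, an enzyme of the endoplasmic reticulum and of droplets whose loss in mice removes most body triglyceride, was lower on krill in both of its probe sets, which share 1 source sequence. Dgat2 1422677_at read 6385, 8810 and 12409 in control and 883, 1505 and 4412 in krill livers. It fell by 2.20 on the log2 scale (SE 0.31, limma adjusted p = 5.76e-05), a 4.60-fold lower level. Dgat2 1422678_at read 12985, 16332 and 19491 in control and 2266, 5893 and 12562 in krill livers and fell by 1.69 (SE 0.30, limma adjusted p = 0.000302), a 3.23-fold lower level.

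The highest krill array lay below the lowest control array in both Dgat2 probe sets. Within the krill group replicates 2, 4, 5 and 7 were lowest, at 883 to 1505 in 1422677_at and 2266 to 5893 in 1422678_at, and replicates 1, 3 and 6 read 3405 to 4412 and 6601 to 12562. Without the 4 arrays the log2 changes were -1.26 and -0.88 (limma adjusted p = 0.000716 and 0.0029). Array quality moved with this spread, and its part in it was not tested.

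Dgat1, the acyltransferase that also re-esterifies incoming fatty acids, had 1 tested probe set. Dgat1 1418295_s_at read 911, 1051 and 1257 in control and 696, 848 and 1212 in krill livers. The groups overlapped, with 4 krill arrays below every control and replicates 1, 3 and 6 inside the control range. Its log2 change was -0.23 (SE 0.17, 95% interval -0.58 to 0.12, limma adjusted p = 0.27). Without krill replicates 2, 4, 5 and 7 it was 0.11. The dim Dgat1 1445229_at read 55.4 to 104 in control and 11.6 to 430 in krill livers. With no signal filter its log2 change of 0.33 missed the threshold (limma adjusted p = 0.648). Whether Dgat1 and Dgat2 differed in their response was not tested.

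**Figure D2:**
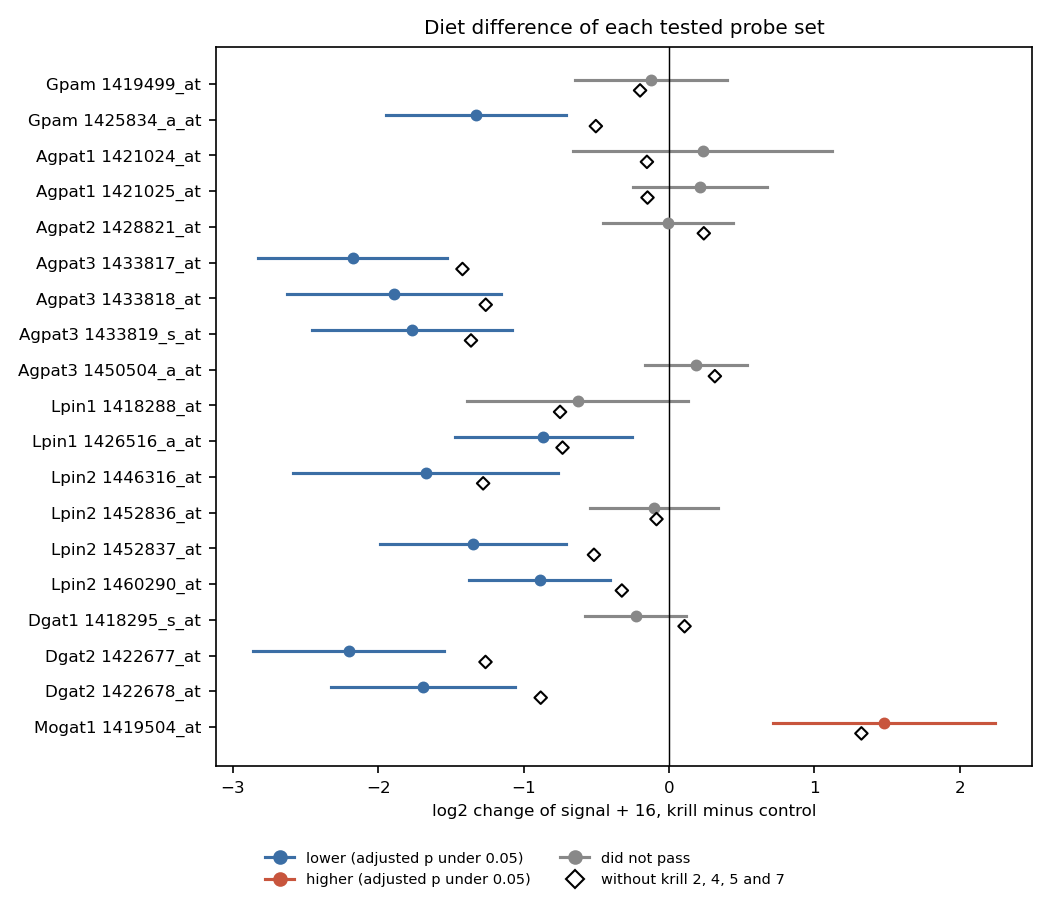
Log2 change of signal + 16, krill minus control, for the 19 tested probe sets, with 95% intervals from limma. Blue points are lower, the red point higher and grey points did not pass, and open diamonds are the values without krill replicates 2, 4, 5 and 7. The diamonds of 3 Agpat3 and both Dgat2 probe sets stay between -0.88 and -1.42, while that of Dgat1 1418295_s_at lies at 0.11.

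Mogat1 encodes a monoacylglycerol acyltransferase, which makes diacylglycerol by the side route and is known to rise in fatty mouse liver. It was the only member that was higher on krill. Mogat1 1419504_at read 26.4, 159 and 285 in control and 179, 451 and 675 in krill livers. Of the krill arrays 6 lay above every control array and replicate 1, at 179, lay inside the control range. The log2 change was 1.48 (SE 0.36, limma adjusted p = 0.00361), a 2.79-fold higher level. Without krill replicates 2, 4, 5 and 7 it missed the threshold at 1.32 (limma adjusted p = 0.0587), and it was 0.76 with spike-in scaling (limma adjusted p = 0.103). The signal is low, and the receptor probe sets given above also read higher on krill arrays; the part of that shift in the Mogat1 value was not tested.

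Pnpla3 encodes a droplet protein with lipase and acyltransferase activity and is a known target of SREBP-1c and ChREBP. Pnpla3 1420655_at read 12.4, 66.0 and 127 in control and 40.5, 208 and 475 in krill livers. Krill replicates 2, 4, 5 and 7 read 208 to 475, above every control array, and replicates 1, 3 and 6 read 40.5 to 113, inside the control range. With no signal filter the log2 change of 1.27 (SE 0.52) missed the threshold (limma adjusted p = 0.0703). The arrays with the higher Pnpla3 values are those with the highest receptor signal, and the part of this in the Pnpla3 value was not tested.

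Of the 19 tested probe sets, 5 were lower with no overlap between the diets, against 7.78% of all tested, and 0 were higher with no overlap, against 5.2%. Those 5 are the 3 Agpat3 and the 2 Dgat2 probe sets. When each gene was represented by its probe set of highest mean log2 signal, 9 genes were tested, with Dgat2 lower, Mogat1 higher and 7 not passing, against 24.1% lower and 22.4% higher over 11308 genes. Spread within the krill group was wider than in controls for Dgat2, where the coefficient of variation of 1422678_at was 61.2% in krill and 13.3% in control livers. It was wider for Gpam 1419499_at too, at 57.4% and 9.76%. Lpin1 1418288_at went the other way, at 54.6% in krill and 77.0% in control livers.

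Probe sets of the same gene therefore differed in their diet difference. The span between the highest and lowest log2 change was 2.36 in Agpat3, 1.57 in Lpin2, 1.20 in Gpam, 0.51 in Dgat2, 0.23 in Lpin1 and 0.020 in Agpat1. Over 4759 genes with several tested probe sets the median span was 0.676, and Agpat3 stood at percentile 96.9, Lpin2 at 86.2 and Gpam at 75.7. The Lpin2 span and percentile rest on Lpin2 1446316_at, at -1.67, which passed the filter through its control arrays alone. They are therefore not counted as support for Lpin2. The next lowest Lpin2 probe set, 1452837_at, stood at -1.35, against -0.10 for the highest, 1452836_at. A percentile for that narrower span is not given here. A gene with some probe sets lower and some not was common, at 33.6% of those genes, and 4 of the 6 members with several tested probe sets were of this kind.

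The log2 ratio of each probe set to that of highest mean in its gene was fitted over 7938 such pairs, a test chosen after the data were seen. A ratio within an array shows unequal change and not that either probe set was constant. Agpat3 1433817_at over 1450504_a_at had a ratio of 0.341 to 0.627 in control and 0.0264 to 0.238 in krill arrays, with no overlap. Its log2 ratio fell by 2.36 (SE 0.38, limma adjusted p = 0.00157), and those of 1433818_at and 1433819_s_at changed by -2.08 and -1.95 (limma adjusted p = 0.00268 and 0.00593). In Lpin2 the ratio of 1452837_at to 1452836_at was 0.334 to 0.475 in control and 0.0862 to 0.328 in krill arrays and fell by 1.25 on the log2 scale (SE 0.30, limma adjusted p = 0.0094), although both come from 1 source sequence. Lpin2 1446316_at fell by 1.57 relative to the same probe set (limma adjusted p = 0.0199). As 1446316_at passed the filter through its control arrays alone, this ratio is not counted as support either. Dgat2 1422677_at fell by 0.51 relative to 1422678_at (limma adjusted p = 0.0385). Lower ratios were called for 15.5% of all pairs.

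Gpam missed the threshold at -1.20 (limma adjusted p = 0.0507), Lpin2 1460290_at stood at -0.79 (limma adjusted p = 0.0681), Lpin1 at -0.23 (limma adjusted p = 0.442) and Agpat1 at 0.020 (limma adjusted p = 0.975). Without krill replicates 2, 4, 5 and 7 the Agpat3 ratios stood at -1.74, -1.58 and -1.68 and passed (limma adjusted p = 0.0125, 0.0168 and 0.0349), against 6.06% of all pairs. Those of Lpin2 1452837_at, at -0.43, Lpin2 1446316_at, at -1.19, and Dgat2, at -0.38, did not pass (limma adjusted p = 0.158, 0.126 and 0.190). With the spike-in level as a covariate none of the Gpam, Agpat3, Lpin1, Lpin2 and Dgat2 ratios passed. There the Agpat3 ratios stood at -1.70, -1.44 and -1.57 (limma adjusted p = 0.106, 0.155 and 0.201). With the 3′/5′ index as a covariate none of the ratios of these genes passed either, Agpat3 1433817_at standing at -2.37 (limma adjusted p = 0.671). The 3′/5′ ratios of actin and pyruvate carboxylase, which make up the index, separate the diets completely, while that of GAPDH does not. RNA length as read by that index and diet therefore cannot be told apart in these ratios.

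**Figure D3:**
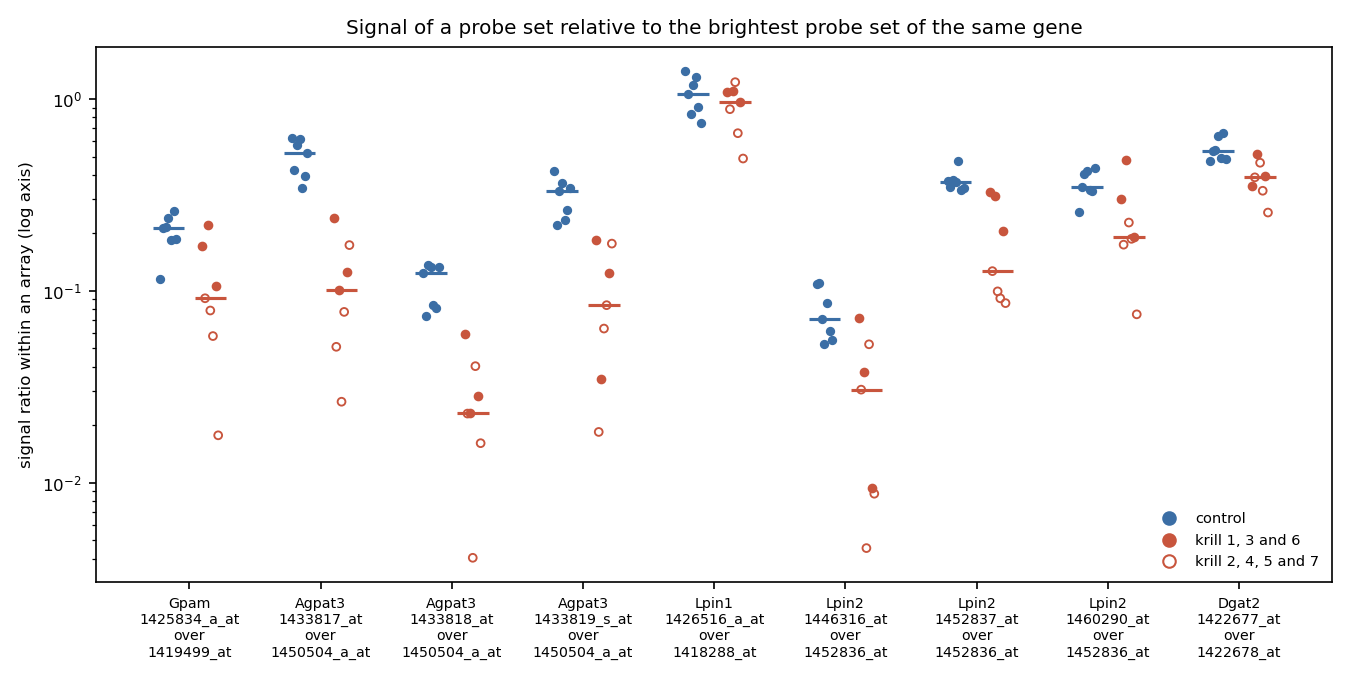
Signal of a probe set over the probe set of highest mean of the same gene on each array, on a log axis, for Gpam, Agpat3, Lpin1, Lpin2 and Dgat2. Blue points are control arrays, filled red points krill replicates 1, 3 and 6, open red points krill replicates 2, 4, 5 and 7, and lines are medians. The krill ratios of the 3 Agpat3 pairs lie below all control ratios, and those of Lpin1 overlap them.

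The genes around these enzymes were read from 9 written lists of 87 genes, with 1 probe set per gene. Of 68 tested, 31 were lower, 8 were higher and 29 did not pass, against the 24.1% and 22.4% given above. With krill replicates 2, 4, 5 and 7 left out these counts were 19 lower and 7 higher, against 18.9% and 12.2% of all genes.

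Among the acyl-CoA ligases, which activate the fatty acids that the acyltransferases use, 4 of 6 tested were lower, 0 were higher and the median log2 change was -0.57. Slc27a4 fell by 0.69, Acsl5 by 0.68, Slc27a2 by 0.57 and Slc27a5 by 0.57 on the log2 scale (limma adjusted p = 0.00836, 0.0198, 0.0161 and 0.0314). Without the 4 krill arrays only Slc27a4 of the 6 was lower, at -0.82 (limma adjusted p = 0.00645), and the median was -0.13. Of the genes that supply glycerol 3-phosphate 3 of 4 tested were lower, with a median of -1.15, or 2 lower, Gpd2 at -1.24 and Gpd1 at -0.37, and a median of -0.18 without those arrays. The mitochondrial glycerol phosphate dehydrogenase Gpd2 fell by 2.30 (SE 0.40, limma adjusted p = 0.000242), the glycerol channel Aqp9 by 1.32 and the cytosolic dehydrogenase Gpd1 by 0.98 (limma adjusted p = 0.0158 and 0.00331). Gpd1l stood at -0.45 (limma adjusted p = 0.0877). Aqp9 stood at 0.0042 without the 4 krill arrays.

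Of the other glycerol-phosphate and lysophosphatidate acyltransferases 2 of 7 tested were lower and 1 was higher, with a median of -0.37. Gpat4, the enzyme of the endoplasmic reticulum that acts beside Gpam, fell by 1.03, and Lpcat3, which places polyunsaturated chains in phosphatidylcholine, fell by 0.84 (limma adjusted p = 0.018 and 0.00291). Agpat4 rose by 0.96 (limma adjusted p = 0.0191) and Lpgat1 stood at -0.64 (limma adjusted p = 0.0677). Without the 4 krill arrays Gpat4, Lpcat3 and Agpat4 stood at -0.20, -0.39 and 0.22, and limma called 0 of the 7, with 2 at an unadjusted p under 0.05. Of the other phosphatidate phosphatases and lipin regulators 3 of 6 tested were lower and 0 higher, with a median of -0.49. Plpp3 changed by -1.35, the lipin-activating phosphatase Ctdnep1 by -1.25 and Plpp5 by -0.60 (limma adjusted p = 0.000116, 0.000147 and 0.0156), while Plpp1 stood at -0.37 (limma adjusted p = 0.122). Plpp3 and Ctdnep1 also passed without the 4 krill arrays, at -1.18 and -1.44, while Plpp5, at -0.45, did not (limma adjusted p = 0.06), and the median was -0.26. Of the other acylglycerol and sterol acyltransferases Mogat2 was on the array and did not pass the filter.

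Of the phospholipid enzymes that draw on phosphatidate or diacylglycerol 4 of 9 tested were lower and 2 higher, with a median of -0.58. Pcyt1a, of phosphatidylcholine synthesis, fell by 1.14, Cdipt, of phosphatidylinositol synthesis, by 1.12 and Pcyt2, of phosphatidylethanolamine synthesis, by 1.03, while the cholinephosphotransferase Chpt1 rose by 0.89 (limma adjusted p = 0.00186, 0.00297, 0.00381 and 0.000497). Without the 4 krill arrays 1 was lower and 1 higher and the median was -0.24. There Pcyt1a, at -0.53, and Chpt1, at 1.00, passed (limma adjusted p = 0.0435 and 0.00229), and Pcyt2, at -0.40, and Cdipt, at -0.40, did not (limma adjusted p = 0.0551 and 0.0827). Chpt1 stood at 0.11 and did not pass with spike-in scaling. Among 14 tested transcription factors and coregulators that act on the pathway 8 were lower and 1 higher, with a median of -1.09, and without the 4 krill arrays these counts were also 8 and 1. Mlxipl, which encodes ChREBP, changed by -2.70, Ppara by -1.93, Rxra by -1.82 and the SREBP escort Scap by -1.78 (limma adjusted p = 1.14e-05, 6.95e-05, 3.34e-05 and 3.41e-05). Without the 4 krill arrays the median was -0.64, and these genes stood at -2.55, -1.18, -1.70 and -1.63.

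Of the triglyceride lipases and droplet proteins 6 of 12 tested were lower and 3 higher, with a median of -0.47. Cideb, which loads lipid into lipoprotein, changed by -2.98, the lipase Pnpla2 by -2.06, Hsd17b13 by -1.81 and Lipe by -1.43 (limma adjusted p = 2.75e-05, 1.14e-05, 4.66e-05 and 0.000106). Without the 4 krill arrays 4 were lower and 3 higher with a median of -0.16, and these genes stood at -1.93, -2.11, -1.18 and -1.45. Triglyceride export had 1 lower and 1 higher of 10 tested, with a median of -0.16, and without the 4 krill arrays 1 lower and 2 higher with a median of 0.19. Tm6sf2 fell by 1.43 and Sar1b rose by 0.64 (limma adjusted p = 0.000697 and 0.00615), and without the 4 krill arrays they stood at -0.88 and 0.68. Sar1b stood at -0.14 with spike-in scaling. Ces1d and Arf1, at -0.47 and -0.32, missed the threshold (limma adjusted p = 0.139 and 0.197).

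**Figure D4:**
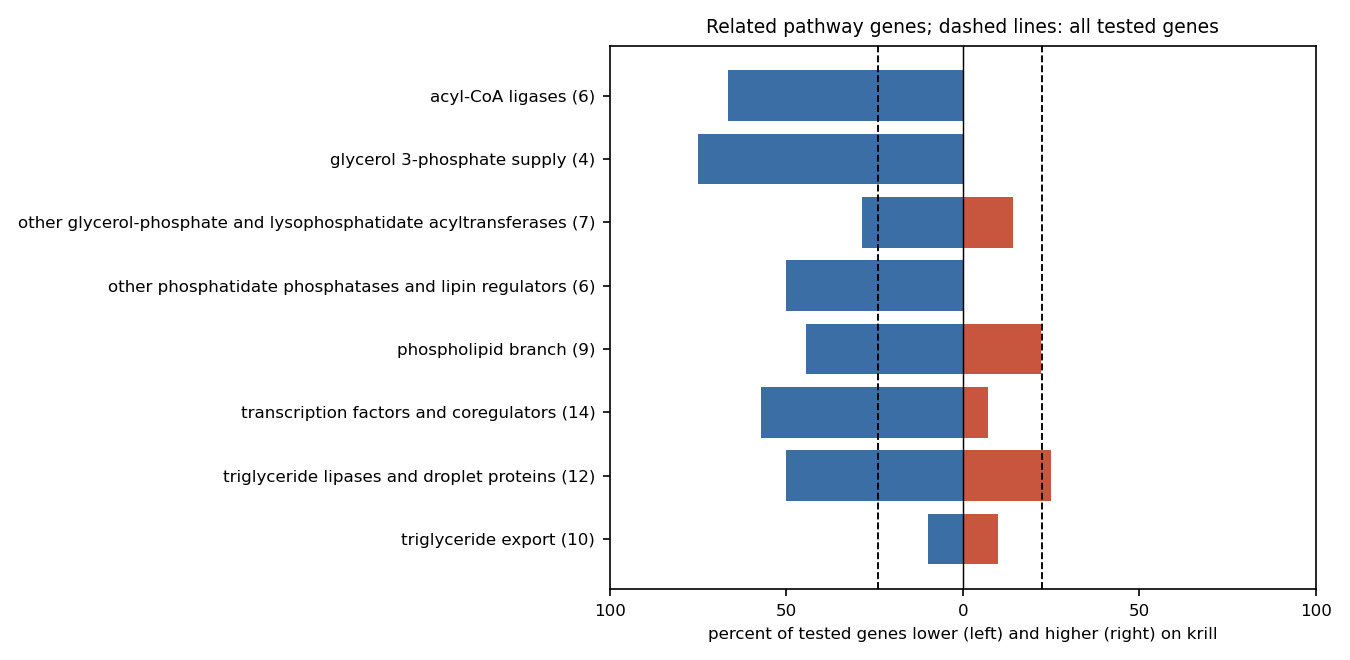
Percent of the tested genes of each related list that were lower (blue, left) or higher (red, right) on krill, with the number tested in brackets. Dashed lines mark the shares over all tested genes, 24.1% lower and 22.4% higher, and triglyceride export lies below both shares.

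Markers of cell types that a liver sample could hold were read beside these values. Of the 7 tested hepatocyte markers 5 were higher on krill and 1, Tat, was lower, against 22.4% and 24.1% of all genes. Once krill replicates 2, 4, 5 and 7 were left out, limma called 0 of the 7 in either direction, with 2 at an unadjusted p under 0.05. For adipocytes, which are rich in Dgat2 and Agpat2, none of the 3 markers on the array passed the filter, and their summed signal was 22.2 to 393 in control and 82.9 to 508 in krill livers. Adipoq averaged 126 ± 124 (SD, n = 7) on control arrays against 53.1 ± 30.1 (SD, n = 7) on krill arrays, Retn 52.5 ± 68.8 against 83.5 ± 116 and Lep 9.36 ± 5.05 against 61.2 ± 56.5, with no common direction. For enterocytes, which use the monoacylglycerol route, Vil1 and Mogat2 did not pass the filter, and Fabp2 and Apoa4, which liver also expresses, were higher on krill. Kupffer cell markers had 2 higher and 1 lower of 5 tested, sinusoidal endothelium 1 and 1 of 5, stellate cells 2 and 0 of 6, and cholangiocytes, erythroid cells and pancreatic acinar cells 0 of 1, 1 and 2. Without the 4 krill arrays the counts higher and lower were 2 and 0 for Kupffer cells, 1 and 1 for endothelium and 2 and 0 for stellate cells, with the erythroid gene Alas2 higher and Fabp2 but not Apoa4 called. In a bulk sample fewer cells of a type and less RNA per cell cannot be told apart, and the part of cell make-up in the values of the 10 genes was not tested.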

How the data were processed

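Liver RNA of 14 mice was labelled with biotin and hybridised to Affymetrix arrays, per the labels' protocols. Per the submitters' processing notes the deposited signal intensity was made with MAS5, whose version and detection calls are not given in the sources used here. Values are linear, and each deposited array has the same mean intensity after trimming 2% of probe sets at each end. Whether this scaling raised the background on some arrays was not tested. Groups came from the sample titles, and p-values measure the spread between mice and their arrays.

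Of 45101 probe sets 64 are controls, 34945 carry 1 symbol and 932 several. The upper 50% by mean of log2(signal + 16), 22518, entered limma 3.58.1 in R 4.3.3 (lmFit, eBayes with a trend, no covariate), with Benjamini-Hochberg adjustment over all of them and 0.05 as the threshold. For 11308 genes the probe set of highest mean log2 signal also stood for the gene. This log2 filter replaced one on mean linear signal after values had been seen, and the linear form is kept as an added alternative. Within-gene log2 ratios, fitted over 7938 pairs without a trend, were added after the data were seen.

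The members, lists, quality measures and alternatives were chosen with earlier results of these data known. Named are all member probe sets and, from each related list, up to 4 tested genes with the smallest p. Quality was measured in Python 3.11.15 (numpy 2.4.6, pandas 2.3.3, matplotlib 3.10.9 for figures). Same-numbered arrays correlated at -0.03 to 0.10 in their deviations from the group means, and 1 of 7 pairs exceeded 0.1. The labels do not say that the numbers pair animals, and low correlations cannot exclude it, so the main fit used no pairing. In simulated krill and control arrays of equal quality with 22518 probe sets, 37 of 100 differences of size 1 and 89 of 100 of size 2 on the log2 scale were recovered, and 4 of 22318 unchanged probe sets were called. The simulation gave both diets the same spread and drew each probe set independently. Far fewer probe sets were changed in it than were called in the data. Its rates therefore need not hold for the real arrays.

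Alternatives for each result were pseudocounts of 1 and 64, quantile or median or spike-in scaling (18 hybridisation probe sets), other filters (none, or the upper 30%), genes in place of probe sets, array weights, no trend in eBayes, the replicate block, each array left out, krill replicates 2, 4, 5 and 7 left out, and a covariate for spike-in level or for the 3′/5′ index, the mean log2 ratio of actin and pyruvate carboxylase.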

Additional observations from a re-analysis of the deposited data

Results flagged for a closer look

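In 42 groups of 7 arrays, the control and krill values of 21 probe sets, the highest and the lowest value were set against the rest. In 1 of them a value stood apart, and chance gives about 1 in 20 groups. On the log2 scale the lowest krill value of Lpin1 1426516_a_at lay 0.685 of the group's range below the next one, against a critical value of Dixon's test at the 95% level for 7 values. Krill replicate 4 read 348 and the next lowest krill array 658. Without this array the log2 change of Lpin1 1426516_a_at was -0.71 and did not pass (limma adjusted p = 0.0548).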

How the results depend on the processing

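Of 546 values of member probe sets over 30 alternatives, 488 kept their direction and side of the threshold, 25 lost their call, 7 gained one and 26 changed sign. Leaving out each of the 14 arrays gave 1 member higher throughout, 9 to 10 lower, 6 to 9 related genes higher and 30 to 36 lower, and 8716 to 11569 of all tested probe sets called. In these fits Agpat2 1428821_at ranged from -0.093 to 0.17, Agpat1 1421024_at from -0.050 to 0.41 and Gpam 1419499_at from -0.34 to 0.0059, so their direction is not settled. Agpat2 turned to 0.085, 0.019, 0.015, 0.033 and 0.17 without control replicates 3, 4 and 5 and krill replicates 5 and 7, Agpat1 1421024_at to -0.050 without control replicate 5 and Gpam 1419499_at to 0.0059 without krill replicate 3. The array weights gave Agpat2 0.097.

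Without krill replicates 2, 4, 5 and 7 there were 0 members higher and 6 lower, 7 related genes higher and 19 lower, and 6678 probe sets called. Agpat1 1421024_at and 1421025_at stood at -0.15 and -0.15, Agpat2 at 0.24, Dgat1 at 0.11, Gpd1l at 0.10, Aqp9 at 0.0042, Ces1d at 0.13 and Arf1 at 0.18, and the Lpin1 ratio at 0.017. With the spike-in level as a covariate 0 members were higher and 4 lower, 4 related genes higher and 14 lower, and 3363 probe sets were called. Agpat1 stood at -0.29 and -0.26, Agpat2 at 0.33, Dgat1 at 0.14, Gpd1l at 0.14, Aqp9 at 0.11, Ces1d at 0.11, Arf1 at 0.22 and the Lpin1 ratio at 0.012. With the 3′/5′ index as a covariate, which separates the diets completely, 0 members, 0 related genes and 0 of all probe sets were called by limma in either direction, while 3226 probe sets, 4 of them members, had an unadjusted p under 0.05. There Gpam 1425834_a_at stood at 0.011, Agpat2 at 0.64, Lpin2 1460290_at at 0.14, Slc27a5 at 0.0091, Gpd1l at 0.26, Aqp9 at 0.40, Gpat4 at 0.40, Agpat4 at -0.0089, Plpp1 at 0.40, Ces1d at 0.61 and Arf1 at 0.43, and the ratios of Gpam at 0.90, Lpin2 1460290_at at 0.67 and Dgat2 at 0.091. The cause of these moves was not tested.

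Median centring moved the median of all tested probe sets to -0.44 and spike-in scaling moved it to -0.76. Under centring 0 related genes were higher, and Agpat1 1421024_at, Agpat1 1421025_at and Agpat3 1450504_a_at stood at -0.17, -0.21 and -0.26. Under spike-in scaling 0 members and 0 related genes were higher, and 15 member probe sets and 47 related genes were lower. The same probe sets stood at -0.46, -0.53 and -0.60, with Sar1b at -0.14. Of these, Agpat1 1421025_at was called lower there (limma adjusted p = 0.0469). With the upper 30% of probe sets 0 members were higher, since Mogat1 falls below that filter. With 1 probe set per gene 1 member was lower and 5397 genes were called, and with probe sets averaged within genes 4 and 5411, with Agpat3 at -1.41; fewer features are tested there. With the filter on linear signal the counts were 10 lower and 1 higher, and Pnpla3 entered at 1.27 without passing (limma adjusted p = 0.0651). With the replicate block, for numbers that the labels do not give as pairs, 1 member was higher, 10 were lower and 9757 probe sets were called. Of the 7 numbers 1 correlated best with its own. The Dgat2 ratio lost its call with the block (limma adjusted p = 0.0575), as it did without control replicates 2, 3, 4, 6 and 7 and krill replicates 2, 5 and 7, each left out alone. It also lost its call without krill replicates 2, 4, 5 and 7 together, at -0.38 (limma adjusted p = 0.190). With the spike-in level as a covariate it stood at -0.39 and did not pass (limma adjusted p = 0.435). The Gpam ratio gained a call without control replicate 1 and krill replicates 1 and 3 and with a pseudocount of 64, and Lpin2 1460290_at without krill replicates 1 and 3. Low signal limits the 9 member probe sets whose lowest array read below the highest receptor median: those of Mogat1, Pnpla3 and Agpat1, Agpat3 1433817_at, 1433818_at and 1433819_s_at, Lpin2 1446316_at and Dgat1 1445229_at. Lpin1 1426516_a_at lost its call with quantile normalization (-0.67).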
